A study of Homo sapiens with 12 samples.

Results

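The comparison described here is high glucose against control glucose in human brain microvascular endothelial cells that received a non-silencing siRNA, and thus none against the glucose transporter Glut1. Of 12 columns of counts in the series, the labels put 6 in this comparison and 5 were analysed, 2 from high glucose (numbered 1 and 3) and 3 from control medium (numbered 1, 2 and 3). The high-glucose column numbered 2 equals the mean of columns 1 and 3 in 23397 of 23398 entries and holds no library of its own, so it was left out. The cells were bought from a commercial supplier, grown in that supplier's complete medium, and transfected with the siRNA for 48 h; both groups carry the same treatment apart from the medium. For the glucose concentrations, the time in high glucose and any osmotic control, nothing is given in the sources used here. Nothing in the labels says that the replicates were separate cultures, and the spread behind each p-value is that between libraries, which may be technical. The other 6 libraries of the series, from cells with an siRNA against SLC2A1 (siGlut1) in control or high glucose (n = 3 each), entered the fit to share 1 estimate of the spread and were compared at the end.

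Brain endothelial cells form the blood-brain barrier and take up glucose through Glut1, a facilitative carrier that works without insulin. Inside the cell, hexokinase turns glucose into glucose 6-phosphate. The paired factors MondoA and MLX sense this product and switch on TXNIP and ARRDC4, arrestin-like proteins that reduce glucose uptake. Glucose in excess of the need for glycolysis can enter the hexosamine pathway, which makes UDP-GlcNAc for glycoproteins and for O-GlcNAc on nuclear and cytosolic proteins, or the polyol pathway, which makes sorbitol. Work on diabetic vessels ties these routes to oxidative stress, protein kinase C and inflammatory adhesion molecules, and all of these genes were examined.

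No gene passed the test between the media in these 5 libraries. The number of genes past the threshold (adjusted p under 0.05, quasi-likelihood test of edgeR, Benjamini-Hochberg adjusted over the 14324 genes tested) was 0, or 0% of those tested. The smallest adjusted p was 0.261, for MCTP1. At an unadjusted p under 0.05 there were 774 genes, of which 312 were higher (2.18% of tested genes) and 462 were lower (3.23%). Both high-glucose libraries lay above all 3 controls in 1234 genes (8.61%) and below all 3 in 1322 genes (9.23%). DESeq2 called 33 genes, 17 higher and 16 lower, on the same libraries. Values below are given as CPM (edgeR's counts scaled to a common library size), which compare libraries for 1 gene and not genes with each other. Log2 fold changes are high minus control glucose with their standard error (SE), and no gene named below passed the threshold.

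The precision of the comparison set limits on what could have been missed. The median log2 fold change was -0.015, with quartiles of -0.13 and 0.081. Of 11488 genes with a mean of at least 2 CPM, the 95% interval of the difference stayed within 1.5-fold in either direction for 9580 (83.4%) and within 2-fold for 11151 (97.1%). For those 11151 genes a 2-fold difference between these libraries therefore lay outside the interval.

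The libraries of a group were not all alike. Total counts ran from 40135082 to 62209428 in the 5 libraries. All counts were even numbers; a count of 2 for every read pair would give this. Control 3 stood apart from control 1 and 2, at root mean square distances of 0.326 and 0.392 on log2 CPM, whereas control 1 and 2 were 0.199 apart. High 1 and 3 were 0.221 apart, and distances between the media were 0.223 to 0.296, within the range inside the control group. Same-numbered libraries of the control medium deviated together across the siRNAs, with correlations over genes of 0.268, 0.646 and 0.755 for numbers 1, 2 and 3. In the next results the value without control 3 is given where it makes a call. Leaving out that library alone gave 2 calls, FLJ41200 and RARB. Leaving out the library numbered 3 of both control groups gave 48, 22 higher and 26 lower.

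The tissue label was checked against markers. CPM are not scaled to gene length, so high, low and sums over genes are only a rough guide here. Genes that define endothelium were high, with CDH5, the cadherin of endothelial junctions, at 1662, 1796 and 1459 CPM in control 1, 2 and 3 and 1528 and 1547 CPM in high 1 and 3. PECAM1, an adhesion molecule of endothelial contacts, was at 791, 1041 and 776 CPM and 911 and 832 CPM. The summed level of the 30 endothelial genes was 11041 to 15032 CPM in control and 12809 to 13037 CPM in high glucose; sums are CPM over all counts, without the TMM scaling of the single genes. Of the genes that define other cell types, AQP4 (astrocytes), AIF1 (microglia) and CDH1 (epithelium) had 0 counts in every library, while GFAP, PTPRC and RBFOX3 had at most 8, 6 and 10. RGS5, a pericyte marker also reported in endothelium, was abundant, at 1822, 1935 and 2148 CPM against 2354 and 2421 CPM (log2 fold change 0.28 ± 0.09 SE, adjusted p = 0.866). PDGFRB, the defining pericyte receptor, was at 0.101 to 0.363 CPM in all 5 libraries. The markers of pericytes and smooth muscle summed to 3333 to 3998 CPM in control and 3739 and 3912 CPM in high glucose, more than RGS5 alone. Of 8 tested, 2 were positive and 6 negative, with a median of -0.20 that came to 0.14 without control 2. ACTA2, another of them, overlapped between the media, with a log2 fold change of -0.020. The lymphatic markers summed to 168 to 225 CPM in control and 163 and 156 CPM in high glucose. Most of this was LYVE1, at 127, 177 and 121 CPM against 117 and 97.7 CPM, while PROX1, the lymphatic lineage factor, was at 4.40, 6.27 and 4.07 CPM against 5.96 and 5.10 CPM. The astrocyte markers summed to 342 to 435 CPM in control and 388 and 400.5 CPM in high glucose, most of it GJA1, a gap junction protein that endothelium also makes (372, 346 and 422 CPM against 383 and 392 CPM). The epithelial markers summed to 332 to 434 CPM in control and 376 and 401 CPM in high glucose, and those of neurons and oligodendrocytes to 146 to 157 CPM in control and 127 and 148 CPM in high glucose. The markers of microglia and leukocytes summed to 37.7 to 59.8 CPM in control and 46.2 and 49.6 CPM in high glucose. The fibroblast markers were low, summing to 7.75 to 24.5 CPM in control and 21.7 and 12.6 CPM in high glucose. Among them COL3A1, a fibrillar collagen, was above all controls in high glucose, at 0.887, 0.557 and 0.751 CPM against 1.83 and 1.30 CPM (1.09 ± 0.33 SE, adjusted p = 0.798). The part of such cells in the results was not tested. In bulk RNA, fewer cells of a type and less RNA per cell cannot be told apart.

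The glucose sensing genes are given first, with the promoters of TXNIP and ARRDC4, the 2 of the list that were above all controls, and of the hexosamine enzyme GFPT1. ARRDC3 and MLXIP, which lay below all controls, are given by their values only. The carbohydrate response element bound by MondoA and its relative ChREBP consists of a pair of E-box-like elements set 5 bases apart, searched here as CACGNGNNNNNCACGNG on both strands. RefSeq start-site windows (GRCh38.p14) hold 250 bases before and 50 bases after the start, 300 in all. The pattern is in 20 of 35116 windows (0.057%), of which the upstream one of the 2 windows of TXNIP and the window of GFPT1 are shown with the match in capitals; in GFPT1 the match is on the opposite strand, so its reverse complement is printed. ARRDC4 is shown because it is a textbook target whose window has no match in these letters. The windows are 1 promoter each, at chr1:145996530-145996829 (minus strand), chr2:69387178-69387477 (minus strand) and chr15:97960453-97960752 (plus strand), written 5′ to 3′ along the gene.
TXNIP: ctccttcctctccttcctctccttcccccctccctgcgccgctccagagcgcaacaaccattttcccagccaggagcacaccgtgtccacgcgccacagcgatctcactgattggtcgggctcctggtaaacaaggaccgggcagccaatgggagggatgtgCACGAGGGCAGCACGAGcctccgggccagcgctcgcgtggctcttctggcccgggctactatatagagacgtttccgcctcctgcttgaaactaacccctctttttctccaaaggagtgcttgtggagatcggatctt
GFPT1: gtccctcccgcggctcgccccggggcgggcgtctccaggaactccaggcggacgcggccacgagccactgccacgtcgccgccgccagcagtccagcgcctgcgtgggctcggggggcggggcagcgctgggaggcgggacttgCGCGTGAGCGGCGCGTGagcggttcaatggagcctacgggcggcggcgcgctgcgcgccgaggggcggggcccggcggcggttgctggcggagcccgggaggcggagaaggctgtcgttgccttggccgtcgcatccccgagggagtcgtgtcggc
ARRDC4: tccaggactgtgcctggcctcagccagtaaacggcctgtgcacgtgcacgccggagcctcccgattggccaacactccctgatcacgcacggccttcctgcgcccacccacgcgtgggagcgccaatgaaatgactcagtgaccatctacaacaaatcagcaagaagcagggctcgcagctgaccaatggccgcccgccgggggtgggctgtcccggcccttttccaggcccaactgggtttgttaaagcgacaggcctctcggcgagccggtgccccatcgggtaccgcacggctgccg
The first base of the match lies 88 bases before the start in TXNIP and 106 before it in GFPT1. Of the 20 genes with the pattern, 16 were tested, matched by symbol or RefSeq synonym. TXNIP and GFPT1 were the 2 with an unadjusted p under 0.05, both higher in high glucose. Of all tested genes 2.18% were higher and 3.23% lower at that level. The lowest values among the 16 were those of TIGD1 (-0.41) and MTHFS (-0.39). Over the 16 the median log2 fold change was 0.035 and 9 were positive, beside -0.015 over all genes. The pattern was chosen with the values of TXNIP known, and a match of letters does not show binding.

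TXNIP (hg19 chromosome 1, 145438462 to 145442628), which binds thioredoxin and draws Glut1 off the cell surface, was at 119, 187 and 83.9 CPM in control 1, 2 and 3 and at 304 and 226 CPM in high 1 and 3. Both high-glucose libraries lay above all controls, but the controls themselves spread over more than 2-fold. The group means were 129.8 ± 52.3 CPM (SD, n = 3) and 265 ± 54.7 CPM (SD, n = 2), 2.04-fold apart. The log2 fold change was 1.03 ± 0.30 SE (95% interval 0.37 to 1.70, adjusted p = 0.777), and it ran from 0.79 to 1.40 over the alternatives. ARRDC4, an arrestin relative of TXNIP, was at 0.928, 1.37 and 1.10 CPM against 3.38 and 1.66 CPM. Its groups did not overlap either, but the log2 fold change of 1.16 (SE 0.38, adjusted p = 0.866) came to 0.56 without high 1, the library with the higher value. ARRDC3, a further arrestin relative, went the other way, at 40.5, 52.9 and 41.1 CPM against 37.6 and 33.5 CPM (-0.33 ± 0.13 SE, adjusted p = 0.91). The sensor MLXIP, which encodes MondoA, was lower in both high-glucose libraries, at 132, 144 and 115 CPM against 109 and 110.2 CPM (-0.25 ± 0.10 SE, adjusted p = 0.909). MLX, its partner, overlapped between the media (0.015 ± 0.10 SE). MLXIPL, which encodes ChREBP, was too low to be tested. Over the 8 tested genes of this list, 2 were higher and 2 lower at an unadjusted p under 0.05. The shares of all tested genes were 2.18% and 3.23%, and the list's median was 0.0033.

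**Figure D1:**
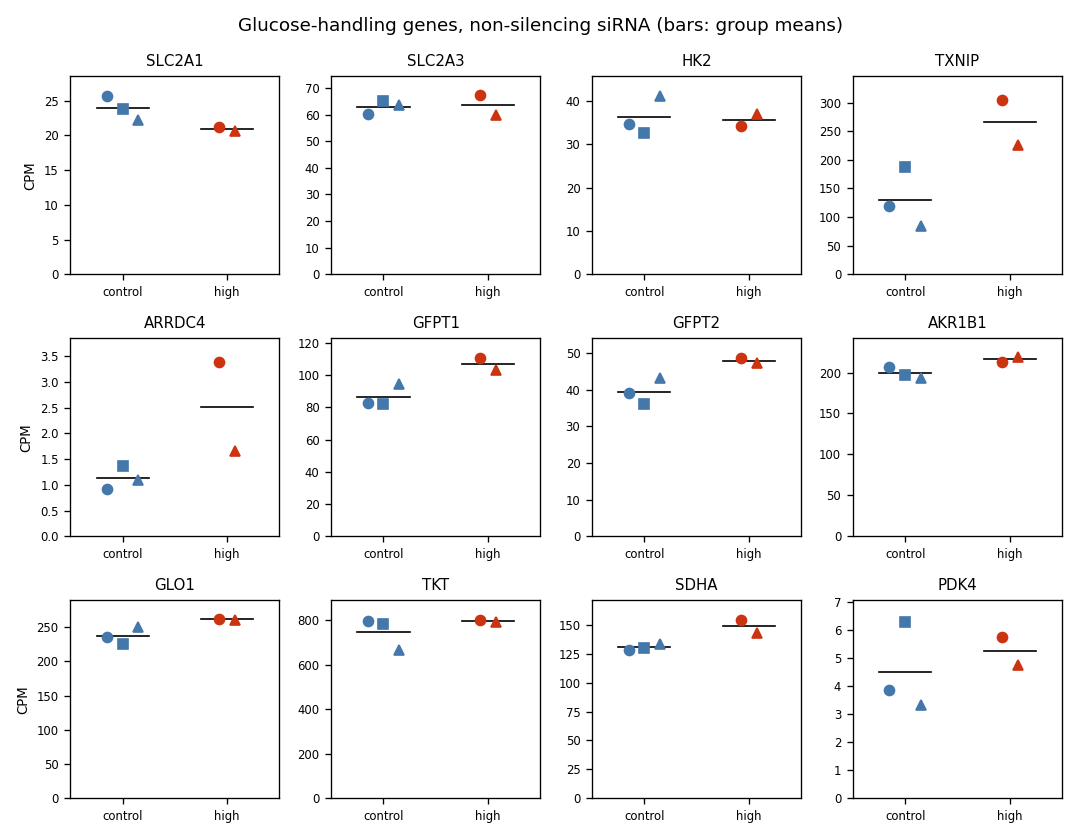
CPM of 12 glucose-handling genes in each library, control glucose in blue (numbers 1, 2, 3 as circle, square, triangle) and high glucose in red (1 and 3), with bars at the group means and axes from 0. TXNIP, ARRDC4, GFPT1, GFPT2, AKR1B1, GLO1 and SDHA have both red points above all blue ones, SLC2A1 has both below, and SLC2A3, HK2, TKT and PDK4 overlap.

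Transcripts of the glucose transporters differed little between the media. SLC2A1, the gene of Glut1, was at 25.7, 23.7 and 22.2 CPM in control 1, 2 and 3 and at 21.2 and 20.7 CPM in high 1 and 3. Both high-glucose libraries lay just below the lowest control, with a log2 fold change of -0.19 ± 0.14 SE (95% interval -0.50 to 0.12, adjusted p = 0.954). SLC2A3, which encodes the high-affinity transporter Glut3, overlapped at 60.2, 65.1 and 63.6 CPM against 67.3 and 60.0 CPM (0.016 ± 0.078 SE). SLC2A6, a transporter of intracellular membranes, had the smallest p of the list, at 43.7, 43.5 and 33.9 CPM against 27.0 and 38.4 CPM (-0.30 ± 0.15 SE, adjusted p = 0.917), and overlapped. Of 15 transporters listed, 10 were tested, and 0 reached an unadjusted p under 0.05 in either direction. Their median was 0.039.

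Glycolysis, the pentose phosphate pathway and glycogen metabolism likewise had 0 members at an unadjusted p under 0.05, of 21, 8 and 11 tested. HK1, the constitutive hexokinase, was at 254, 240.1 and 259 CPM against 279 and 270.4 CPM (0.13 ± 0.067 SE, adjusted p = 0.917), both high-glucose libraries above the controls. HK2, its inducible form, overlapped at 34.8, 32.6 and 41.2 CPM against 34.3 and 37.0 CPM (-0.023 ± 0.16 SE). PFKFB3, which makes the activator of phosphofructokinase and drives glycolysis in sprouting endothelium, was at 78.3, 73.0 and 71.9 CPM against 84.1 and 74.5 CPM (0.093 ± 0.078 SE). LDHA, which turns pyruvate into lactate, and TKT, transketolase of the pentose phosphate pathway, also overlapped (0.15 ± 0.14 SE and 0.091 ± 0.088 SE). The medians of the 3 lists were 0.037, 0.022 and 0.056.

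The hexosamine pathway had the highest median of the 42 lists described, 0.20, with 6 of its 7 genes positive. Among all tested genes 54.0% were negative. GFPT1, the rate-limiting amidotransferase, was at 82.8, 82.3 and 94.8 CPM in control 1, 2 and 3 and at 111 and 103 CPM in high 1 and 3 (log2 fold change 0.30 ± 0.083 SE, 1.23-fold, adjusted p = 0.674). GFPT2, the second form of the same enzyme, was at 39.1, 36.1 and 43.4 CPM against 48.6 and 47.4 CPM (0.28 ± 0.094 SE, adjusted p = 0.866). PGM3, the mutase of the pathway, was at 83.3, 84.1 and 80.1 CPM against 95.5 and 94.9 CPM (0.21 ± 0.075 SE, adjusted p = 0.872). In these 3 genes both high-glucose libraries exceeded every control, and they are the 3 of the list at an unadjusted p under 0.05, beside 2.18% of all genes in that direction. UAP1, the last enzyme, overlapped, with control 3 highest (101, 83.5 and 128 CPM against 120.5 and 120.1 CPM). The enzymes that add and remove O-GlcNAc, OGT and MGEA5, gave 0.13 ± 0.082 SE and -0.059 ± 0.079 SE. The list's median was 0.14 without control 2 and 0.27 without control 3, so that its size, not its sign, moved with those libraries.

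In the polyol pathway and methylglyoxal clearance, 8 of 9 genes were positive with a median of 0.12, beside 54.0% negative over all tested genes. Of the 9, 0 reached an unadjusted p under 0.05. AKR1B1, aldose reductase, was at 207, 196 and 194 CPM against 213 and 219 CPM (0.12 ± 0.062 SE, adjusted p = 0.917). GLO1, glyoxalase, was at 236, 226 and 249.7 CPM against 261 and 261 CPM (0.14 ± 0.07 SE, adjusted p = 0.917). SORD, which turns sorbitol into fructose, overlapped (0.055 ± 0.12 SE). Targets of the osmotic factor NFAT5 share AKR1B1 with this list and had a median of 0.11. Of 10 tested, 7 were positive and 3 negative, beside 54.0% negative over all tested genes. At an unadjusted p under 0.05 there were 3, all higher, beside 2.18% of all tested genes in that direction. The log2 fold change largest in size was that of AQP1, which was negative, with overlap between the media. SLC5A3, the myo-inositol carrier, was at 17.8, 14.7 and 18.3 CPM against 21.3 and 22.7 CPM (0.38 ± 0.15 SE, adjusted p = 0.914). SLC6A6, the taurine carrier, was at 79.2, 88.5 and 72.1 CPM against 96.3 and 101 CPM (0.31 ± 0.12 SE, adjusted p = 0.872). SLC38A2, which carries neutral amino acids, was at 591, 605 and 567 CPM against 716 and 704 CPM (0.27 ± 0.078 SE, adjusted p = 0.73). In these 3 carriers the media did not overlap. Glucose and osmolarity cannot be told apart in this design.

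In the mitochondrion, 27 of 31 genes of pyruvate dehydrogenase and the TCA cycle were positive, by a median of 0.077. Among all tested genes 54.0% were negative. At an unadjusted p under 0.05 there was 1, higher, beside 2.18% of all tested genes in that direction. That gene was SDHA, the flavoprotein of succinate dehydrogenase, at 128, 130.2 and 133 CPM against 155 and 143 CPM (0.19 ± 0.064 SE, adjusted p = 0.866). PDK4, the kinase that shuts pyruvate dehydrogenase, overlapped, at 3.87, 6.27 and 3.32 CPM against 5.75 and 4.74 CPM (0.23 ± 0.38 SE). The 64 nuclear genes of the respiratory chain had a median of -0.0074, with 3 higher and 2 lower at an unadjusted p under 0.05, beside 2.18% and 3.23% of all tested genes. NDUFS1, the largest subunit of complex I, was at 114, 113 and 114 CPM against 136 and 128 CPM (0.21 ± 0.069 SE, adjusted p = 0.866).

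**Figure D2:**
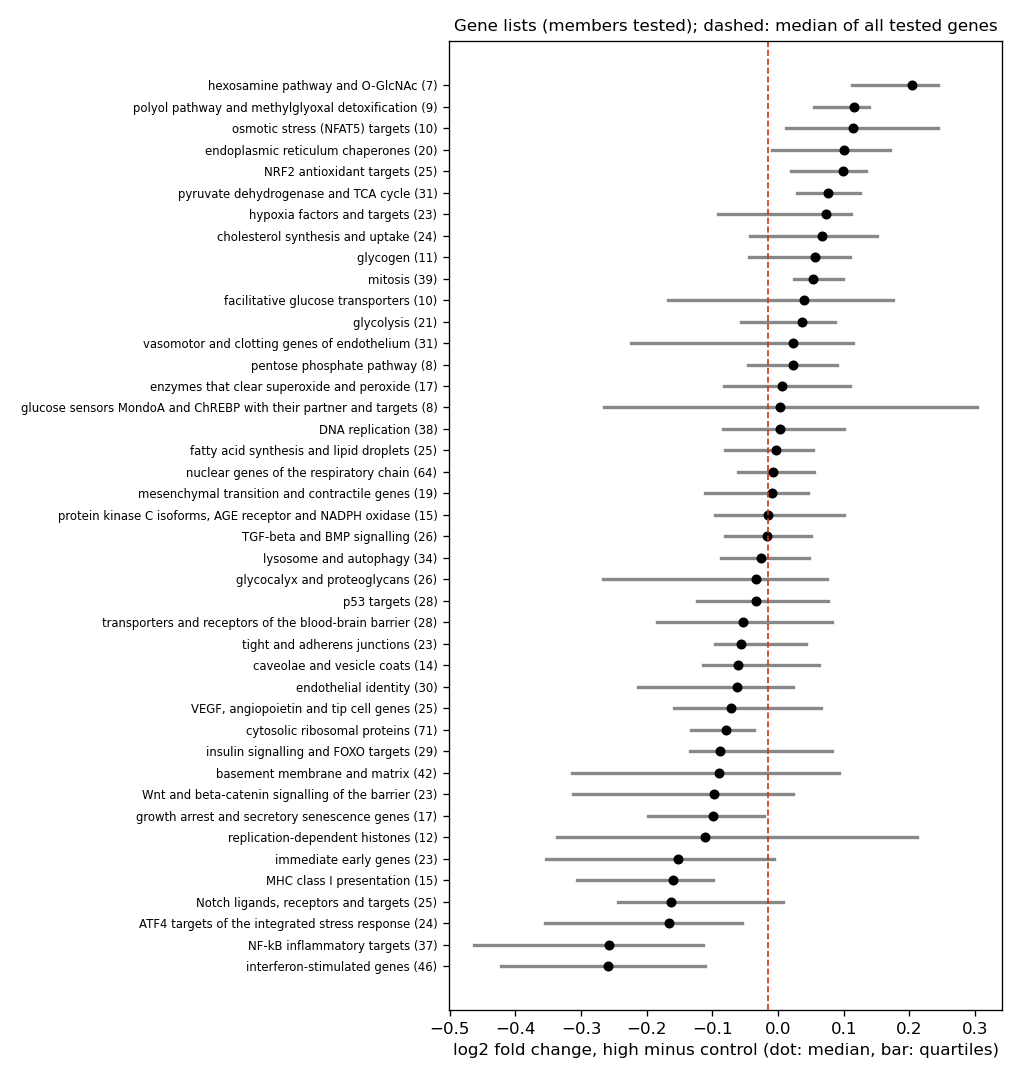
Median (dot) and quartiles (bar) of the log2 fold change, high minus control glucose, for the 42 gene lists other than marker lists, with the number of members tested in brackets and the median of all tested genes as a dashed line. Hexosamine genes lie highest at 0.20, and NF-kB and interferon genes lowest at -0.26.

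Of 20 chaperones of the endoplasmic reticulum, 14 were positive, with a median of 0.10, beside 54.0% negative over all tested genes. At an unadjusted p under 0.05, 4 were higher (HSPA5, MANF, HYOU1 and HSP90B1) and 0 lower, beside 2.18% and 3.23% of all tested genes, and none passed the threshold. HSPA5, the main chaperone of the compartment, was at 1584, 1557 and 1748 CPM against 1936 and 1898 CPM (0.23 ± 0.087 SE, adjusted p = 0.872). MANF, a secreted folding factor, was at 86.3, 84.1 and 94.2 CPM against 108 and 98.3 CPM (0.22 ± 0.083 SE, adjusted p = 0.872). In both the media did not overlap. Among 24 targets of the stress factor ATF4, 18 were negative, with a median of -0.17, beside 54.0% negative over all tested genes. At an unadjusted p under 0.05, 3 were lower and 0 higher, beside 3.23% and 2.18% of all tested genes. PPP1R15A, which restarts translation after stress, was at 62.0, 65.7 and 69.1 CPM against 52.8 and 48.9 CPM (-0.37 ± 0.082 SE, adjusted p = 0.542). VLDLR, a lipoprotein receptor, was at 12.4, 12.7 and 12.3 CPM against 10.3 and 10.1 CPM (-0.29 ± 0.10 SE), and CEBPB, a partner factor of ATF4, at 7.30, 7.14 and 8.02 CPM against 4.79 and 6.20 CPM (-0.45 ± 0.16 SE). TRIB3 and ASNS, common reporters of this pathway, were below all controls by less (-0.22 ± 0.16 SE and -0.15 ± 0.13 SE), and DDIT4 overlapped (-0.39 ± 0.23 SE).

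Antioxidant genes gave no large difference. Of 25 targets of NRF2, the factor that answers oxidants, 20 were positive, with a median of 0.10, beside 54.0% negative over all tested genes. At an unadjusted p under 0.05, 2 were higher and 0 lower, beside 2.18% and 3.23% of all tested genes. ME1, malic enzyme, was at 55.6, 58.0 and 61.9 CPM against 74.8 and 66.3 CPM (0.27 ± 0.084 SE, adjusted p = 0.823). NQO1, a quinone reductase, was at 329, 335 and 320.1 CPM against 385 and 355 CPM (0.17 ± 0.07 SE, adjusted p = 0.914). HMOX1, heme oxygenase, was at 167, 203 and 171 CPM against 184 and 177 CPM and overlapped, with a difference near 0 (SE 0.10). NOX4, an oxidase that makes hydrogen peroxide in endothelium, overlapped (0.091 ± 0.12 SE), as did PRKCA, a protein kinase C isoform (-0.023 ± 0.14 SE). SOD2, the mitochondrial superoxide dismutase, spread from 38.8 to 110.3 CPM among the controls alone (-0.33 ± 0.38 SE, and 0.19 without control 2). None of the 15 genes of protein kinase C, the AGE receptor and NADPH oxidase reached an unadjusted p under 0.05.

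Of 37 inflammatory targets of NF-kB, 33 were negative, beside 54.0% of all tested genes, with a median of -0.26. At an unadjusted p under 0.05, 1 was higher and 3 were lower, beside 2.18% and 3.23% of all tested genes, and none passed the threshold. ICAM1, which holds leukocytes to endothelium, was at 137, 216 and 102 CPM in control 1, 2 and 3 and at 145 and 109 CPM in high 1 and 3 (-0.26 ± 0.34 SE). VCAM1, a second such molecule, was at 2.82, 6.88 and 1.41 CPM against 3.34 and 1.98 CPM (-0.46 ± 0.61 SE). SELE, E-selectin, was at 20.6, 35.9 and 5.98 CPM against 16.9 and 7.98 CPM (-0.74 ± 0.88 SE). In all 3, control 2 was highest and control 3 lowest, and the high-glucose libraries lay between them. Without control 2 the log2 fold change of ICAM1 was 0.098 and that of VCAM1 0.35, both of the opposite sign, and that of SELE was -0.077. CCL2, a monocyte chemokine, followed this order of controls as well (-0.11 ± 0.62 SE, and 0.36 without control 2), while IL8, a neutrophil chemokine, was highest in control 3, at 35.3, 36.1 and 76.3 CPM against 52.95 and 51.1 CPM (0.077 ± 0.39 SE). The members at an unadjusted p under 0.05 and lower were NFKBIB, an inhibitor of NF-kB, RELB, a subunit, and CSF2, a growth factor of myeloid cells. NFKBIB was at 18.8, 19.7 and 18.7 CPM against 14.6 and 15.8 CPM (-0.33 ± 0.10 SE, adjusted p = 0.755). RELB was at 26.5, 29.9 and 20.2 CPM against 17.9 and 18.5 CPM (-0.49 ± 0.22 SE, adjusted p = 0.917). The list's median ran from -0.36 without the libraries numbered 3 of both control groups to -0.083 with a replicate block.

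Interferon-stimulated genes had 42 of 46 members negative, by a median of -0.26, with 13 below all controls, beside 9.23% of all tested genes, and 0 above. Over all tested genes 54.0% were negative. At an unadjusted p under 0.05 there were 2, both lower, beside 3.23% of all tested genes in that direction. IFITM3, which blocks viral entry at membranes, was at 509.7, 537 and 484 CPM against 446 and 409 CPM (-0.25 ± 0.091 SE, adjusted p = 0.872). IFIT2, an RNA-binding antiviral protein, was at 5.28, 10.3 and 6.36 CPM against 4.63 and 4.46 CPM (-0.68 ± 0.31 SE, adjusted p = 0.917). ISG15, a ubiquitin-like protein, was at 101, 109 and 84.9 CPM against 64.2 and 72.1 CPM (-0.53 ± 0.28 SE, adjusted p = 0.917). MX1, an antiviral GTPase, was at 89.9, 109.5 and 90.0 CPM against 87.0 and 54.5 CPM, with high 3 far below the rest and high 1 close to the controls (-0.45 ± 0.31 SE). The list's median was -0.41 without high 1 and -0.090 without high 3. All 15 genes of MHC class I presentation were negative, by a median of -0.16, with 2 lower at an unadjusted p under 0.05. In that direction 3.23% of all tested genes reached it. The median of these 15 was -0.29 without high 1 and -0.091 without control 2. The log2 fold change of B2M, -0.16 with all libraries, was -0.35 without high 1 and 0.0045 without high 3. HLA-B was at 236, 240.4 and 162 CPM against 167 and 115 CPM and overlapped (-0.59 ± 0.23 SE, adjusted p = 0.914). HLA-F was at 2.14, 2.83 and 2.60 CPM against 1.71 and 1.42 CPM (-0.69 ± 0.28 SE, adjusted p = 0.914), and the near-identical members of this family can share reads.

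Most genes of endothelial identity and of the barrier overlapped between the media. Of 30 identity genes, 1 lay above all controls and 2 below, beside 8.61% and 9.23% of all tested genes. These 2 were lower at an unadjusted p under 0.05, beside 3.23% of all tested genes. They were SOX7, a lineage factor, at 154, 170.1 and 150.0 CPM against 136 and 129 CPM (-0.26 ± 0.087 SE, adjusted p = 0.866), and ETS1, another, at 139, 156 and 137 CPM against 132 and 119.99 CPM (-0.19 ± 0.078 SE, adjusted p = 0.914). VWF, the clotting factor stored by endothelium, was at 1985, 2548 and 861 CPM against 1482 and 1499 CPM, with control 3 lowest (-0.27 ± 0.39 SE). CLDN5, the main claudin of the barrier, was at 115, 129 and 52.8 CPM against 63.9 and 72.6 CPM. The high-glucose libraries lay between control 3 and the other controls (-0.53 ± 0.32 SE, adjusted p = 0.931). Without the libraries numbered 3 of both control groups the difference was -0.84 with an adjusted p of 0.0409, and without control 2 it was -0.29 with an adjusted p of 0.997. OCLN, occludin, was at 2.94, 2.93 and 3.10 CPM against 4.09 and 4.03 CPM, above all controls (0.44 ± 0.13 SE, adjusted p = 0.795), and TJP1, which ties both to the cytoskeleton, overlapped (-0.077 ± 0.092 SE). The efflux pumps ABCB1 and ABCG2 overlapped (0.06 ± 0.22 SE and -0.078 ± 0.24 SE), as did the lipid carrier MFSD2A (-0.18 ± 0.33 SE) and the transferrin receptor TFRC (0.081 ± 0.17 SE). INSR, the insulin receptor, was below all controls, at 9.28, 12.3 and 7.39 CPM against 6.55 and 6.72 CPM (-0.54 ± 0.24 SE, adjusted p = 0.914).

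Among vasomotor and clotting genes, NOS3, the endothelial nitric oxide synthase, was at 136, 142 and 129 CPM against 115 and 155 CPM and overlapped (-0.0089 ± 0.12 SE). DDAH1, which clears an inhibitor of that enzyme, was at 103, 93.4 and 105 CPM against 127 and 117 CPM (0.29 ± 0.082 SE, adjusted p = 0.73). THBD, thrombomodulin, was at 17.2, 24.1 and 21.0 CPM against 15.4 and 14.6 CPM (-0.47 ± 0.16 SE, adjusted p = 0.872). EDN1, endothelin, overlapped (0.16 ± 0.15 SE). ANGPT2, which loosens vessels, was at 85.7, 71.4 and 127 CPM against 125 and 133 CPM, with control 3 as high as the high-glucose libraries (0.44 ± 0.19 SE, adjusted p = 0.914). Without the libraries numbered 3 of both control groups its difference was 0.71 with an adjusted p of 0.0387, and without control 2 it was 0.29 with an adjusted p of 0.997. VEGFC, a growth factor of lymphatic vessels, was at 40.5, 33.8 and 39.5 CPM against 46.8 and 46.3 CPM (0.29 ± 0.12 SE, adjusted p = 0.914). Of 25 Notch genes, 18 were negative, beside 54.0% of all tested genes. The median of the Notch genes, -0.16, came to -0.0010 without control 2.

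Of 42 matrix genes, 3 were higher and 6 lower at an unadjusted p under 0.05, beside 2.18% and 3.23% of all tested genes. The list's median was -0.090, and it was 0.024 without control 2. NID2, nidogen of the basement membrane, was at 12.5, 16.0 and 11.6 CPM against 7.25 and 7.90 CPM (-0.82 ± 0.20 SE, adjusted p = 0.62). Without the libraries numbered 3 of both control groups it was -0.91 with an adjusted p of 0.037, and without control 2 it was -0.66. MMP10, a metalloproteinase, was at 10.2, 9.46 and 12.1 CPM against 7.38 and 6.48 CPM (-0.61 ± 0.15 SE, adjusted p = 0.629). LOXL1, which cross-links elastin, was at 4.84, 5.21 and 4.60 CPM against 3.04 and 3.52 CPM (-0.57 ± 0.14 SE, adjusted p = 0.629), while LOX, a relative, was higher, at 55.1, 53.2 and 56.5 CPM against 68.3 and 64.5 CPM (0.27 ± 0.08 SE, adjusted p = 0.771). COL8A1, a short-chain collagen of vessels, was at 102, 117 and 72.7 CPM against 146 and 149 CPM (0.60 ± 0.16 SE, adjusted p = 0.674). In these 5 genes the media did not overlap. The type IV collagens COL4A1 and COL4A2 and fibronectin, FN1, were lowest in control 3 and overlapped between the media (-0.31 ± 0.32 SE, -0.32 ± 0.29 SE and -0.12 ± 0.21 SE).

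Proliferation genes showed no difference that the test could resolve. Of 38 genes of DNA replication 0, and of 39 of mitosis 0, reached an unadjusted p under 0.05, with medians of 0.0025 and 0.054. These medians were -0.15 and -0.090 without control 2, and 0.17 and 0.22 without control 3, so their sign depended on those libraries. MKI67, a marker of cycling cells, was at 163, 104 and 137 CPM against 130.2 and 128 CPM (-0.057 ± 0.25 SE). Cytosolic ribosomal proteins had 64 of 71 members negative by a median of -0.080, beside 54.0% negative over all tested genes. Among these 71, 15 were below all controls and 6 lower at an unadjusted p under 0.05. The shares of all tested genes were 9.23% and 3.23%. RPS6, a protein of the small subunit, was at 1437, 1543 and 1729.9 CPM against 1351 and 1368 CPM (-0.21 ± 0.087 SE, adjusted p = 0.914). Immediate early genes had 4 of 23 lower and 0 higher at an unadjusted p under 0.05, beside 3.23% and 2.18% of all tested genes, with a median of -0.15. JUN, a subunit of AP-1, was at 113, 108 and 114 CPM against 75.6 and 97.1 CPM (-0.37 ± 0.12 SE, adjusted p = 0.866).

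**Figure D3:**
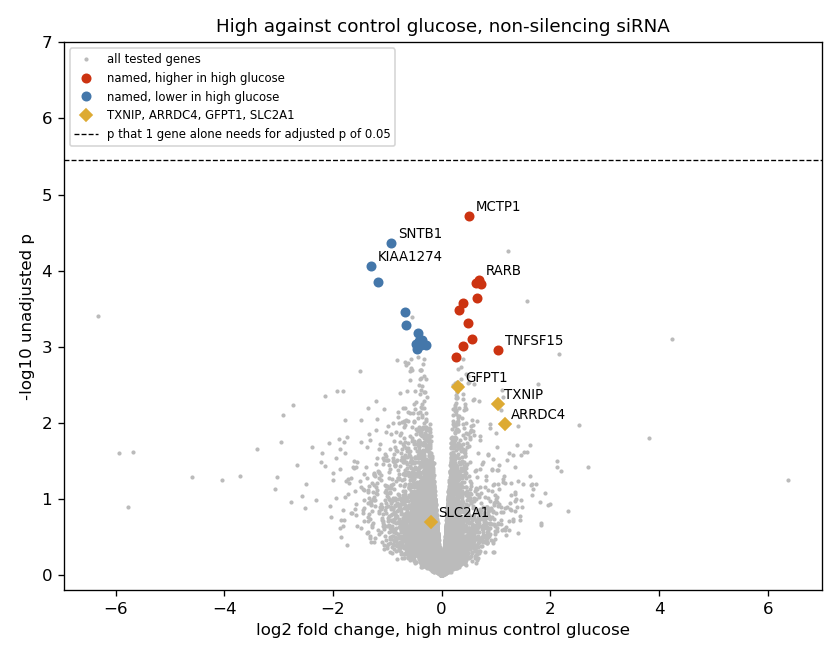
Log2 fold change, high minus control glucose (x), against -log10 of the unadjusted p (y) for all 14324 tested genes. No gene reaches the dashed line at which 1 gene alone would have an adjusted p of 0.05, and MCTP1 lies closest to it.

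The 24 genes named by their p were the 12 per direction with the smallest p among genes with a mean of at least 2 CPM and groups that do not overlap, leaving out clone names, pseudogenes, antisense and small RNA genes. Their groups do not overlap by the choice itself, so their values are a description. The smallest p was that of MCTP1 (hg19 chromosome 5, 94042289 to 94620279), a calcium-binding membrane protein of the endoplasmic reticulum and endosomes. It was at 76.7, 79.2 and 77.4 CPM in control 1, 2 and 3 and 108 and 113 CPM in high 1 and 3 (log2 fold change 0.50 ± 0.072 SE, 1.42-fold). Its controls lay close together, and its unadjusted p was 1.93e-05 (adjusted p = 0.261). RARB (chromosome 3, 25469754 to 25639422), the beta retinoic acid receptor, was at 37.6, 36.1 and 48.9 CPM against 65.2 and 66.2 CPM (0.68 ± 0.12 SE, adjusted p = 0.272). Without control 3 it was 0.84 with an adjusted p of 0.0117. TNFSF15, an endothelial cytokine that restrains vessel growth, had the largest fold among the 12 that were higher, at 50.6, 43.0 and 32.6 CPM against 98.4 and 74.0 CPM (1.04 ± 0.24 SE, adjusted p = 0.57). BDNF, a neurotrophin, was at 8.79, 7.84 and 6.76 CPM against 11.3 and 11.8 CPM (0.56 ± 0.12 SE, adjusted p = 0.542). Of the 24 genes, 8 passed the threshold without the libraries numbered 3 of both control groups. They were MCTP1, RARB, CD163L1, TM4SF18, TLL1, KIAA1274, DAGLA and EVC.

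HSPA2, a member of the HSP70 chaperones, was at 3.75, 3.54 and 3.60 CPM against 6.09 and 5.85 CPM (0.72 ± 0.13 SE). TLL1, a metalloprotease that processes procollagen, was at 33.2, 40.8 and 43.4 CPM against 66.0 and 56.3 CPM (0.64 ± 0.12 SE). CD163L1, a scavenger receptor relative, was at 31.2, 27.9 and 35.3 CPM against 50.5 and 47.6 CPM (0.64 ± 0.11 SE). These 3 were 1.56-fold to 1.64-fold higher. Others that were higher included AMIGO2 (an adhesion protein), TM4SF18, FHL1 (a LIM domain protein) and ITPRIP, which binds the inositol trisphosphate receptor, with log2 fold changes of 0.26 to 0.49. FHL1 was the tightest of them, at 84.3, 82.8 and 85.1 CPM against 104 and 105 CPM.

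Lower in high glucose, KIAA1274, named PALD1 in RefSeq, an endothelial phosphatase-like protein, had the largest fold, at 4.76, 5.11 and 3.63 CPM against 1.96 and 1.70 CPM (-1.29 ± 0.22 SE, adjusted p = 0.272). SNTB1, a syntrophin of the dystrophin complex, was at 4.44, 4.00 and 4.63 CPM against 2.08 and 2.49 CPM (-0.93 ± 0.15 SE, adjusted p = 0.261). TTC29, best known from sperm flagella, was at 2.54, 3.19 and 3.44 CPM against 1.46 and 1.26 CPM (-1.17 ± 0.21 SE). All 3 were low genes of at most 5.11 CPM. A pair of lipid enzymes followed, PLA2G4C, a phospholipase A2, at 25.7, 29.8 and 23.9 CPM against 17.6 and 15.3 CPM (-0.68 ± 0.14 SE), and DAGLA, which makes an endocannabinoid, at 12.9, 12.1 and 9.99 CPM against 6.92 and 7.82 CPM (-0.66 ± 0.14 SE). GPCPD1, which breaks down glycerophosphocholine, was at 14.2, 14.4 and 14.5 CPM against 10.7 and 11.3 CPM (-0.39 ± 0.088 SE). ATF5, a stress factor related to ATF4, was at 52.9, 62.4 and 57.3 CPM against 41.2 and 42.0 CPM (-0.47 ± 0.11 SE). The remaining genes, RAD51D (DNA repair), PPP1R15A, RHBDF2 (a trafficking factor of the TNF sheddase), RBM3 (a cold-induced RNA-binding protein) and EVC (a protein of the cilium base), gave -0.46 to -0.29. FLJ41200 (chromosome 9, 13406379 to 13431328), which has a clone name and is therefore not among the 24, was picked out after its values were seen. It was higher, at 31.2, 30.2 and 51.3 CPM against 86.4 and 90.0 CPM (1.23 ± 0.20 SE, adjusted p = 0.261). Its log2 fold change without control 3 was 1.52, with an adjusted p of 0.00198.

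**Figure D4:**
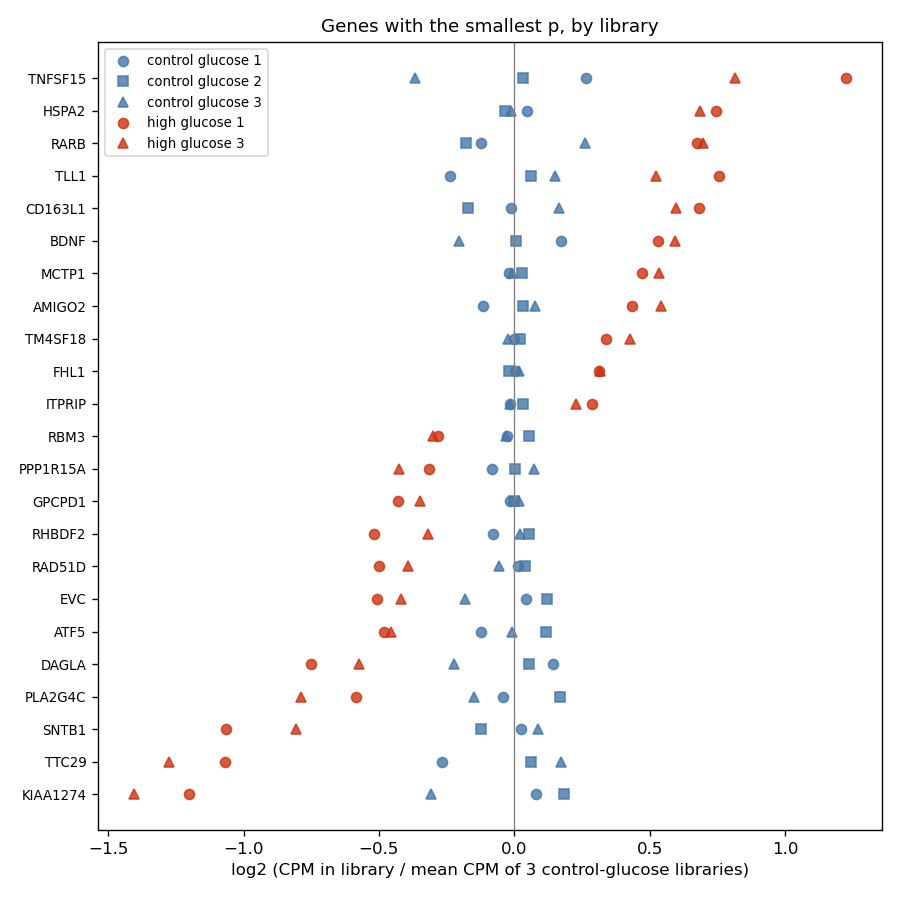
Log2 of each library's CPM over the mean of the 3 control-glucose libraries, for 23 of the 24 genes named by p (rows), with control glucose in blue and high glucose in red. By choice, red and blue points do not overlap in any row, the red points of KIAA1274 reach farthest to the left, and those of TNFSF15 farthest to the right.

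The siGlut1 libraries give the difference between the media a second time, in other libraries. SLC2A1 was at 8.56, 9.05 and 6.26 CPM there in control medium and 7.09, 7.19 and 6.38 CPM in high glucose, all below the 21.2 and 20.7 CPM seen with non-silencing siRNA in high glucose. There the number past the threshold was 2 (MCTP1 and ABI3BP), and 2176 genes had an unadjusted p under 0.05. All 24 genes named by p had the same sign in both. Of them 22 had an unadjusted p under 0.05 in the siGlut1 cells, beside 15.2% of all tested genes. Both tests took their spread from the same fit, so a small p with siGlut1 is not independent of the choice of the 24. Over the 774 genes at an unadjusted p under 0.05 with non-silencing siRNA, 86.6% had the same sign, beside 67.7% of all tested genes. Without the libraries numbered 3 of both control groups the shares were 92.2% and 73%. These shares include whatever same-numbered control libraries have in common, and its part in them was not tested.

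MCTP1 was at 97.9, 87.0 and 99.3 CPM with siGlut1 in control medium and 136, 137 and 142 CPM in high glucose (numbers 1, 2 and 3 of each) (0.55 ± 0.065 SE). TNFSF15 was at 52.4, 39.3 and 32.4 CPM against 94.6, 59.9 and 68.5 CPM (0.84 ± 0.22 SE), and KIAA1274 at 3.22, 3.80 and 2.57 CPM against 1.58, 1.69 and 1.42 CPM (-1.04 ± 0.19 SE). The interaction tests of these 3 gave unadjusted p-values of 0.647, 0.566 and 0.395. GFPT1 was at 86.7, 78.5 and 81.6 CPM against 109, 107 and 101 CPM (0.36 ± 0.074 SE). TXNIP, in contrast, was at 96.4, 122 and 75.8 CPM against 149.8, 94.6 and 100.03 CPM with siGlut1, where the media overlapped (0.23 ± 0.28 SE), and ARRDC4 at 0.652, 0.994 and 1.70 CPM against 1.25, 1.03 and 1.20 CPM (0.067 ± 0.35 SE). The difference of the 2 effects was tested as an interaction, and 0 of 14324 genes passed the threshold (394 at an unadjusted p under 0.05). For TXNIP its unadjusted p was 0.0754 and for ARRDC4 0.0574, with an adjusted p of 0.999 for both, so neither was shown to differ between the siRNAs.

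**Figure D5:**
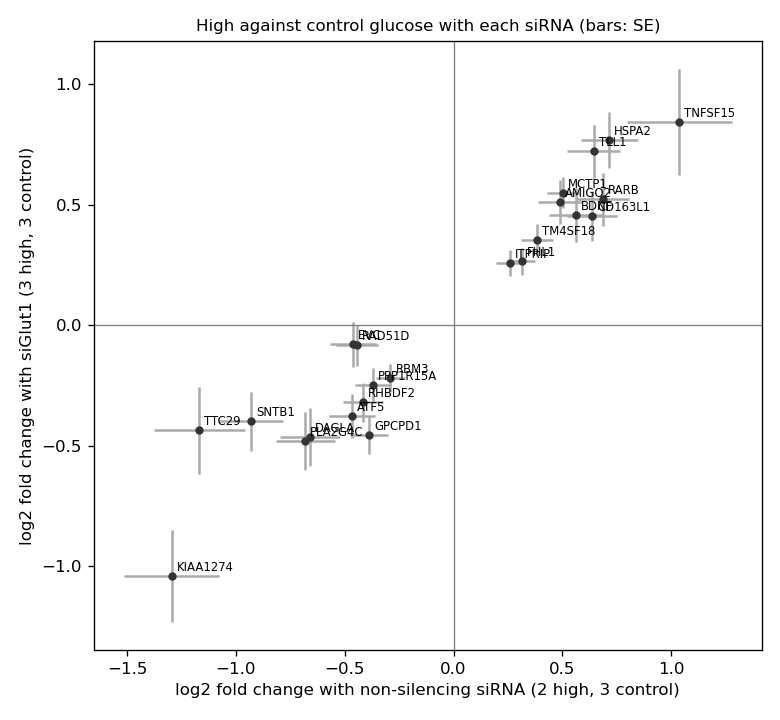
Log2 fold change, high minus control glucose, with non-silencing siRNA (x, 2 high and 3 control libraries) against siGlut1 (y, 3 and 3 libraries) for 23 of the 24 genes named by p, with bars of 1 SE. Every gene lies in the lower left or upper right quadrant, and RAD51D and EVC lie near 0 with siGlut1.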

How the data were processed

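The deposited table holds whole-number counts and RPKM values per gene for 12 columns, made by the authors, per the file headers; no result uses the RPKM values. The submitters' processing notes name hg19 and DESeq2. For the aligner, counting tool and use of strand, nothing is given in the sources used here. The protocols name 2 library kits without telling the libraries apart. Antisense and overlapping genes may share counts. No column was without a sample (0).

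Counts of 11 columns were fitted in R 4.3.3 with edgeR 4.0.16: 23274 entries, after leaving out 124 linked to sex, filterByExpr, TMM, 1 quasi-likelihood model of 4 groups (7 residual degrees of freedom), two-sided F tests with Benjamini-Hochberg adjustment and a threshold of 0.05. The SE is the log2 fold change over the square root of F. Scripts were tested on simulated data. The design assumed 12 columns; 1 was left out as described.

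Genes were named by a rule: SLC2A1, 12 per direction by p (clone names, pseudogenes, antisense and small RNA genes left out), key genes of 49 lists, and the member of each list with the smallest p. A few genes that the rule takes are not reported here. Members and lists were chosen with earlier results of these data known. Other genes given with values are list members with an unadjusted p under 0.05 or members that a sentence compares, chosen after their values were seen.

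Replicate numbers were not taken as pairs across the media. Alternatives were a replicate block, DESeq2 1.42.0, other scaling, filters, a fit of the 2 groups, removal of a gene length trend, a fold minimum of 1.5, libraries left out and all 12 columns. Halved counts were added after seeing the data.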

Additional observations from a re-analysis of the deposited data

How the results depend on the processing

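The count of genes past the threshold was 0 in edgeR with a replicate block, with DESeq2 size factors, without a filter on low counts, with at least 1 CPM in 2 libraries, with only the 2 groups compared, with the length trend removed, with a fold minimum of 1.5 and with halved counts. DESeq2 called 33, 17 higher and 16 lower, all 24 genes named by p among them and 3 list members (TNFSF15, PPP1R15A and NID2). All 12 columns, with the mean column taken as a library, gave 11, 8 higher and 3 lower. With 1 library left out the count ran from 0 to 2, and both calls were higher and came without control 3. Without the libraries numbered 3 of both control groups it was 48, 22 higher and 26 lower, with 8 list members and 8 of the 24 genes named by p. The cause of these changes was not tested. The replicate block changed no call; same-numbered libraries of the 2 media had correlations of deviations of -0.196 (number 1) and 0.0605 (number 3), neither over 0.1, while those of the 2 control groups are given in the report. Over up to 15 alternatives (13 or 14 for 10 genes), 123 of 177 genes kept their sign in each that gave a value; the other 54 had a log2 fold change of at most 0.47 in size, and 0 of the 24 genes named by p were among them. Of 46 list medians, 23 changed sign in at least 1 alternative. Depth was 40135082 to 62209428 counts per library.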
